A study of Mus musculus with 4 samples.

Results

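The cells described here are macrophages of the mouse colon lamina propria in which Ecm1, Acp5, Pxdc1 and Cd9 were high together. Every kept cell received a score, the sum over these 4 genes of the natural log of 1 plus the gene's unique molecular identifiers (UMIs) per 10000 UMIs of the cell, and the cells in the top 7% of the score, pooled over all mice, were taken as members. The rule gave 318 members of 4543 kept cells, that is of barcodes with at least 1000 UMIs, a minimum number of genes, at most 7% mitochondrial UMIs and under 20% immunoglobulin UMIs. Mouse DEP 11 gave 138 members, DEP 13 gave 61, PBS 2 gave 63 and PBS 3 gave 56.

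The study asked how oral exposure to air pollution particles changes the innate immune cells of the gut. Single-cell libraries came from 4 male C57/Bl6N mice, 1 library per mouse, and their age is not stated in what was read. The 2 DEP mice (11 and 13) received 12 µg diesel exhaust particles in 200 µL phosphate-buffered saline (PBS) by gavage on 5 days of each week over about 6 months, and the 2 PBS mice (2 and 3) received the buffer alone. Lamina propria cells of each mouse were sorted for CD11b together with Ly6C or CD64, surface proteins that mark monocytes and macrophages, and the mouse was the replicate in every test.

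Macrophages of the colon lamina propria are replenished by blood monocytes, which lose Ly6C and Ccr2 and gain MHC class II and the complement protein C1q as they mature. They take up dying cells and microbes beneath the epithelium and break down what they ingest in lysosomes. Ecm1 encodes a secreted glycoprotein of the extracellular matrix, Acp5 the tartrate-resistant acid phosphatase that is best known from osteoclasts, and Cd9 a tetraspanin of the plasma membrane. Cxcl1, which was listed as a marker of these cells but is not in the score, encodes a chemokine that draws neutrophils.

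The files held 28692 genes and 6954 barcodes, with 4489342 to 10293703 UMIs per mouse. The libraries shared 36 barcode sequences, of which 9 were on kept cells and 3 on members. A doublet caller marked 61 of 4543 kept cells (1.34%) and 2 of 318 members (0.629%). These cells stayed in the main analysis, and 29 of the 61 were in DEP 13.

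The members had the markers of mature macrophages. The 3 C1q genes together made a median of 187 per 10000 UMIs in members, with 51.5 in the lowest member. Because 316 of the 318 members had at least 60 per 10000, a level that lay between the low and the high mode of the kept cells, the 2503 other cells above that level, called C1q-high other cells below, served as the closest comparison. Their median was 157 per 10000, and that of the cells under 60 per 10000 was 24.7. Every member had a UMI of C1qa, C1qb and C1qc. The summed level of 19 macrophage identity genes was 508 to 553 per 10000 in the members of the 4 mice and 447 to 492 in C1q-high other cells, while that of 18 monocyte genes was 9.92 to 12.1 in members and 16.6 to 22.7 in C1q-high other cells.

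Markers of other cell types were summed in the same cells. All 7 markers of enteric glia and neurons had no UMI in any member, as did 7 of 9 neutrophil markers, 6 of 8 mast cell markers, 5 of 10 natural killer and innate lymphoid markers, 4 of 7 eosinophil markers, 6 of 20 colon epithelial markers, 2 of 8 B cell markers and 2 of 11 stromal markers. Among 10 dendritic cell markers each had at least 1 UMI, and their sum was 0.896 to 1.10 per 10000 in members and 1.19 to 1.56 in C1q-high other cells. The sum of 8 plasma cell markers was 4.90 to 13.2 per 10000 in members and 5.41 to 13.7 in C1q-high other cells. Of 11 T cell markers Trbc1 and Cd8a were at 0, and the sum was 0.717 to 1.55 per 10000 in members and 0.597 to 0.835 in C1q-high other cells, with overlap. Without Cd4 and Il7r, the markers called as higher in members, it was 0.0448 to 0.171 per 10000 in members and 0.132 to 0.262 in C1q-high other cells. Of 8 endothelial markers Cdh5, Cldn5, Plvap and Emcn were at 0, and the sum was 0.617 to 0.851 per 10000 in members and 0.316 to 0.383 in C1q-high other cells, without overlap. Without Pecam1 it was 0 to 0.0672 in members and 0.0197 to 0.0305 in C1q-high other cells. The part of T cells or endothelium in the other results was not tested.

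The genes of the score chose the members, so their levels are a description and were not tested. Levels are in CPM of all UMIs of the cell set. Ecm1 (chr3:95734147-95739569 in mm10) was at 1067, 1274, 978 and 896 in the members of DEP 11, DEP 13, PBS 2 and PBS 3. C1q-high other cells of the same mice had 265, 361, 327 and 280 CPM. In every mouse the Ecm1 level of members lay above that of other macrophages, and the 4 mice stayed within a narrow range. Acp5 (chr9:22126727-22135711) was at 1050 ± 156 CPM in members and 360 ± 54.5 in C1q-high other cells (mean ± SD, n = 4 mice). Pxdc1 (chr13:34627834-34653486), which encodes a PX domain protein, was at 342 ± 73.2 and 74.9 ± 16.9 CPM, and Cd9 (chr6:125460266-125494791) at 839 ± 108 and 228 ± 44.0 CPM. Cxcl1 (chr5:90891241-90893115) was at 275, 173, 229 and 264 CPM in members of DEP 11, DEP 13, PBS 2 and PBS 3, and at 71.3 to 86.3 CPM in C1q-high other cells.

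**Figure D1:**
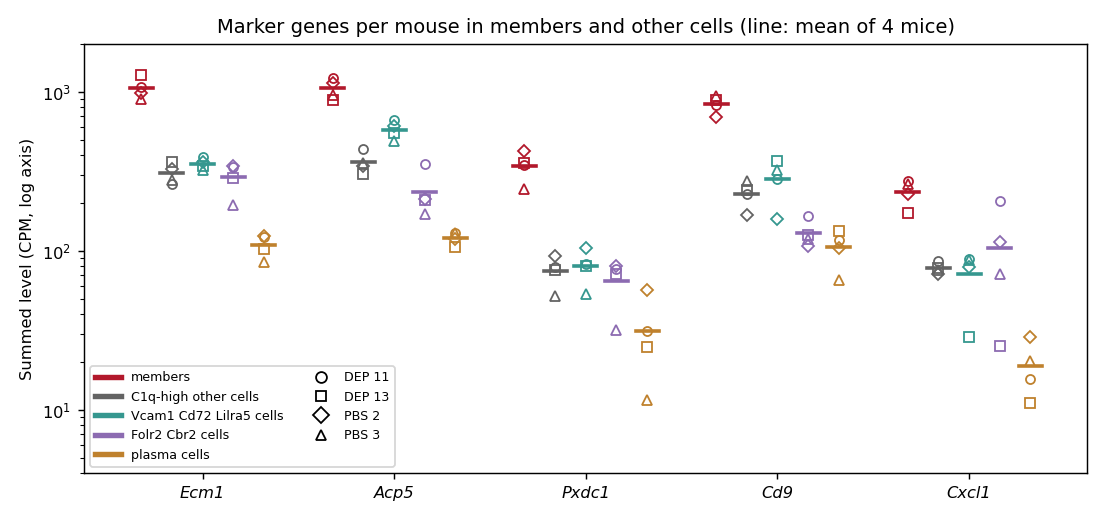
Summed level in CPM of all UMIs (log axis) of the 4 genes of the score and of Cxcl1 in each mouse, for members, C1q-high other cells, 2 other macrophage sets and plasma cells; symbols are mice and lines are means of 4 mice. For the score genes and Cxcl1 all 4 member symbols lie above those of C1q-high other cells, and Cxcl1 in Folr2 Cbr2 cells spreads from 25.1 to 206 CPM.

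Most members expressed all genes of the score. A UMI of each of the 4 genes was present in 286 members and of 3 genes in the remaining 32, while 437 of the C1q-high other cells (17.5%) also had all 4. An Ecm1 UMI was found in 99.7% of members and 68.1% of C1q-high other cells, at median depths of 9100 and 6870 UMIs per cell. Plasma cells, which should lack the gene, had one in 78.8% of 80 barcodes at a median of 20942 UMIs. The same barcodes had C1qa at 1358 CPM, against 891 in kept cells under 60 per 10000 C1q. They thus carried macrophage transcripts, and whether these were background or came from doublets was not tested. The share of cells with a UMI is therefore no clean measure of expression at full depth. After each cell was thinned to 1000 UMIs the shares were 62.9%, 22.0% and 8.75%. For Pxdc1 the thinned shares were 27.4%, 5.87% and 3.75%, and Pxdc1 was the gene missing most often, with a UMI in 91.2% of members.

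The score was continuous, and the members are its upper range and not a separate cluster. The last member scored 6.90 and the first cell outside 6.88. The last one inside had 4095 UMIs with 2 of Ecm1, 2 of Acp5, 1 of Pxdc1 and 3 of Cd9, and the first one outside had 11915 UMIs with 13, 11, 1 and 4. Within 0.25 score units of the limit there were 52 members and 51 other cells, and the highest score was 12.3. Across the 2819 C1q-high cells the 4 genes rose together, with Pearson's r of 0.30 to 0.40 for the 6 pairs (log-normalised values, cells sharing libraries and depth). Within members, where the score itself limits the combinations, r was -0.21 to 0.02.

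To see whether each gene was also high in cells it had not chosen, the score was rebuilt from 3 genes and the gene left out was measured. Each of the 4 sets of 318 cells shared 255 to 259 cells with the members. Ecm1 was then 1.76 log2 units higher in the chosen cells than in the other kept cells, Acp5 1.46, Pxdc1 1.93 and Cd9 1.82. In every mouse the chosen cells were above the others for the gene left out. The other kept cells included those under 60 per 10000 C1q, which had less of the score genes. Ecm1, for example, was at 98.5 CPM there and at 308 in C1q-high other cells. The folds thus also hold the difference between such cells and mature macrophages. The score genes had been picked together from an earlier grouping of these cells, so the folds describe how closely they keep company and no test is given.

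The promoter of Ecm1 is shown because it was the only one of the score genes with any of 3 motifs searched. The motifs, read on both strands of the RefSeq promoters (GRCm38.p6, 250 bases before to 50 after each start), were AP-1 (TGACTCA), the E-box CACGTG and PU.1 (GAGGAAGT), which occurred in 5.20%, 7.15% and 3.20% of 32851 promoters. Ecm1 held an AP-1 motif that begins 64 bases before the start. None of the 3 was in the windows of Pxdc1, Cd9 or the 3 starts of Acp5, which says only that these letters are not there. The 120 bases before the Ecm1 start, at chr3:95739570-95739689 on the minus strand, read 5′ to 3′ with the motif in capitals:
Ecm1: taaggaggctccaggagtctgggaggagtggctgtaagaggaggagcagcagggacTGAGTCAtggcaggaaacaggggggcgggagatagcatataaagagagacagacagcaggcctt

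The members were a larger share of the cells in both DEP mice than in either PBS mouse. They made up 138 of 1167 kept cells in DEP 11 (11.8%, exact 95% interval 10.0 to 13.8%), 61 of 635 in DEP 13 (9.61%, 7.43 to 12.2%), 63 of 1236 in PBS 2 (5.10%, 3.94 to 6.47%) and 56 of 1505 in PBS 3 (3.72%, 2.82 to 4.80%). The groups did not overlap, and the intervals, which cover counting error only, did not overlap between groups either. The mean share was 10.7 ± 1.57% in DEP and 4.41 ± 0.973% in PBS mice (SD, n = 2 each), a difference of 6.31 percentage points and a ratio of 2.43. An exact two-sided permutation test over mice gave p = 0.333, the smallest value that 2 against 2 mice allow.

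The share of mature macrophages among sorted cells overlapped between the groups. C1q-high cells were 60.1% and 63.3% of kept cells in mice 11 and 13, and the difference of DEP from PBS was -1.20 points (exact permutation p = 1.0). Of C1q-high cells alone, members made up 19.7%, 14.9%, 7.75% and 6.09% in DEP 11, DEP 13, PBS 2 and PBS 3. With the score taken on counts thinned to 1000 UMIs per cell the shares were 9.43%, 9.29%, 5.74% and 5.18%, and the ratio was 1.71. That score kept 180 of the 318 members. With each gene left out of the score in turn the difference was 5.44 to 6.65 points. Because a fixed share of the pooled cells was taken and cells were sorted, these are shares of sorted cells, and a change in cell number cannot be told apart from a change in the other cells.

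Other sets were cut in the same way for comparison. The top 7% by Vcam1, Cd72 and Lilra5, genes of another macrophage set of the mucosa, made up 5.83%, 8.82%, 4.61% and 9.10% of kept cells of mice DEP 11, DEP 13, PBS 2 and PBS 3, and the groups overlapped. The top 7% by Folr2 and Cbr2, genes of resident macrophages around vessels and muscle, made up 7.11%, 7.87%, 6.96% and 6.58% in the same order, so that both DEP mice again lay above both PBS mice, by 0.725 points on average (exact permutation p = 0.333, the smallest possible). The differences between the member difference and these were not tested.

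**Figure D2:**
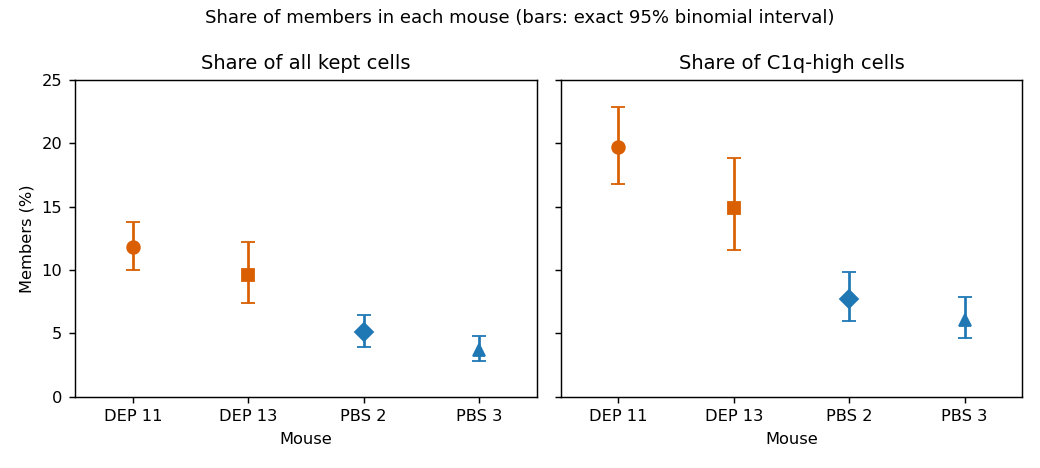
Share of members (%) in each mouse, of all kept cells (left) and of C1q-high cells (right), with bars for the exact 95% binomial interval. DEP 11 and DEP 13 lie above PBS 2 and PBS 3 in both panels, at 11.8% and 9.61% against 5.10% and 3.72% on the left.

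Which other genes accompanied the score was read from the summed counts of members and C1q-high other cells of each mouse, fitted with edgeR's quasi-likelihood test with mouse as a block. Members differed from C1q-high other cells in 686 of 7756 genes (8.84%) at a Benjamini-Hochberg adjusted p under 5%, of which 329 (4.24%) were higher and 357 (4.6%) lower. The balance turned with the fit, to 178 higher and 141 lower with DESeq2 and to 135 higher and 82 lower without the mouse block. Of the 686 genes, 630 had the same direction in all 4 mice. The score genes stem from an earlier grouping of the same cells, so these calls describe the genes that move with the score and are not independent evidence of a separate cell population. Against all other kept cells, monocytes included, 1417 of 7728 genes (18.3%) were called, and against other C1q-positive cells (at least 10 per 10000, which 97.6% of kept cells reached) 1364 of 7726 (17.7%). In the following, CPM are relative to the UMIs of the genes in the fit, from which the score genes were left out.

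The 10 genes named as higher in members included secreted proteins, receptors and a metabolic enzyme. Adamdec1, a metalloprotease-like secreted protein of mature gut macrophages, was at 103, 110, 45.3 and 32.1 CPM in the members of DEP 11, DEP 13, PBS 2 and PBS 3 and at 16.4 to 27.3 CPM in C1q-high other cells (log2 fold change 1.74 ± 0.19 SE). Members of both DEP mice had the higher levels. Il1r2, the decoy receptor of interleukin 1, was at 122, 190, 146 and 174 CPM in members and 42.9 to 55.5 in the others (1.65 ± 0.12). Lag3, a receptor that binds MHC class II, was at 123 to 152 CPM against 38.9 to 63.7 (1.53 ± 0.11), with no mouse of one set within the range of the other.

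Cystm1 had the largest positive value, with 42.4 to 56.7 CPM in members and 10.2 to 23.4 in C1q-high other cells (1.79 ± 0.19). Pgf, a growth factor of the VEGF family, was 1.70 ± 0.23 log2 units higher, Il7r, the interleukin 7 receptor, 1.69 ± 0.19, the peroxisomal racemase Amacr 1.60 ± 0.18 and the membrane protein Emp1 1.49 ± 0.12. All 4 were higher in members of every mouse, as the choice of genes required, and without overlap. Apol7a was higher by 1.63 ± 0.14 with overlap between mice, since its member level ran from 29.8 CPM in PBS 3 to 172 in DEP 13. Apol7a and Apol7c belong to a family of similar genes between which reads may be divided. Cxcl1, a listed marker of these cells, was 1.66 log2 units higher and is given as a description.

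The most negative value among the named genes was that of Ccl5. Ccl5, a T cell attractant, was at 22.7, 6.67, 16.1 and 25.2 CPM in members of DEP 11, DEP 13, PBS 2 and PBS 3 and at 64.6 to 169 CPM in C1q-high other cells (-2.50 ± 0.18). F13a1, a clotting factor subunit made by monocytes and resident macrophages, was at 13.3 to 18.4 CPM against 49.1 to 75.4 (-1.93 ± 0.19). The monocyte attractant Ccl7 was at 58.4 to 133 CPM against 238 to 415 (-1.77 ± 0.11). In all 3 the members of every mouse were lower than all other mice's C1q-high cells.

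Among the others were the lectin receptors Clec12a (-1.80 ± 0.15) and Cd209a (-1.86 ± 0.33, and -2.85 without DEP 11), the growth factor Igf1 (-1.91 ± 0.25), the calcium-binding S100a4 (-1.77 ± 0.14) and Gm9733 (-1.97 ± 0.26). Each of these was lower in members of all 4 mice, as the choice of genes required. Mt2, a metallothionein, was at 1.67 to 8.11 CPM against 20.1 to 33.2 (-2.20 ± 0.31), but its value turned to 0.41 when the score was taken on thinned counts. Saa3, an acute phase protein, overlapped between the sets, with 49.7 CPM in members of PBS 2 and 0 in PBS 3. Its value was -1.98 ± 0.25, -3.31 without PBS 2 and -0.46 where C1q-high cells were taken from 100 per 10000.

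**Figure D3:**
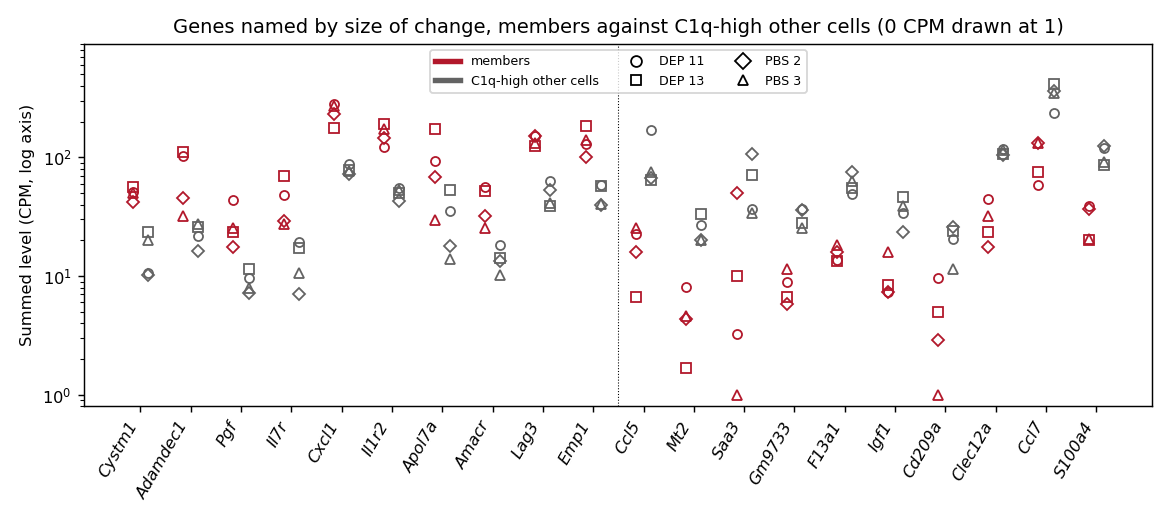
Summed level (CPM of the genes in the fit, log axis, 0 drawn at 1) of the 10 genes named as higher and the 10 named as lower in members than in C1q-high other cells; symbols are mice. Red member symbols lie above the grey ones left of the dotted line and below them right of it, with overlap for Apol7a and Saa3. The direction within each mouse was fixed by the choice of genes.

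Shares of cells with a UMI followed these levels for the genes that were higher. Lag3 had a UMI in 55.7% of members, 21.3% of C1q-high other cells and 22.5% of plasma cells, and after thinning to 1000 UMIs in 13.5%, 4.43% and 0%. For Il1r2 the thinned shares were 13.8%, 3.52% and 2.5%, and for Adamdec1 6.92%, 1.96% and 0% (0 of 80 plasma barcodes). Of the lower genes, Clec12a had a thinned share of 2.83% in members, 10.1% in C1q-high other cells and 12.5% in plasma cells.

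Along the score, the genes of the score climbed through all 10 equal bins of the C1q-high cells, as ordering by them builds in. Genes outside the score took different courses. They were picked because they differed between members and C1q-high other cells, so their direction at the upper end was also set by the choice. Ecm1 was at 5.95 CPM of all UMIs in the lowest bin and 1091 in the highest, where all 282 cells were members. Cxcl1 stayed between 57.1 and 94.0 CPM in the first 8 bins and was at 133 ± 47.0 and 235 ± 48.5 in the last (SD, n = 4 mice). Lag3 increased from 16.1 to 136 CPM and Il1r2 from 24.2 to 148. Clec12a declined from 192 ± 44.2 to 29.8 ± 11.1 CPM and F13a1 from 110 ± 17.4 to 14.9 ± 3.39, and both had reached much of that decline by bin 8, which held no member. The median depth also climbed, from 3938 UMIs per cell in the lowest bin to 9128 in the highest.

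**Figure D4:**
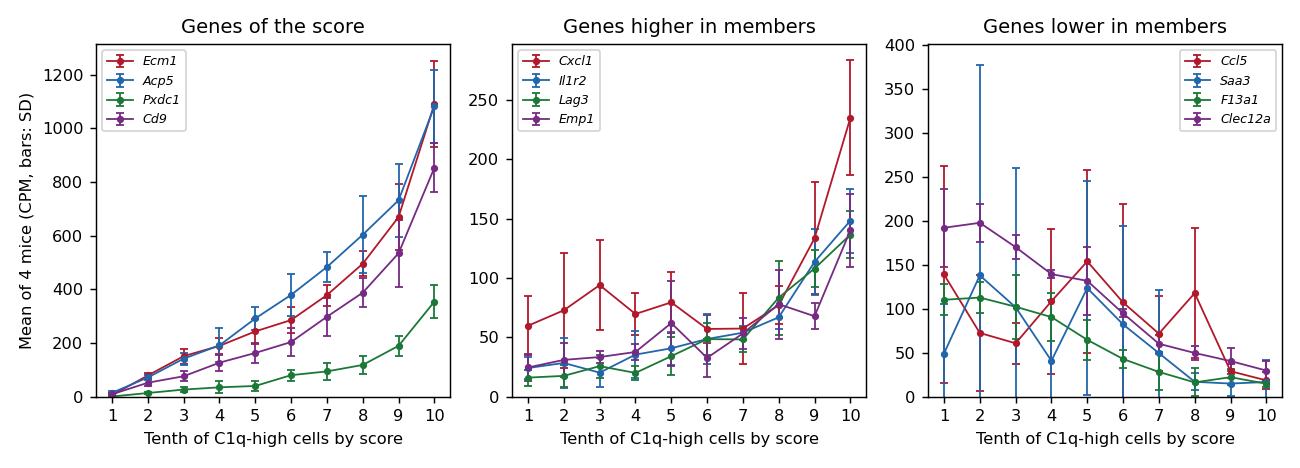
Mean level over 4 mice (CPM of all UMIs, bars SD, cut at 0) in 10 equal bins of the C1q-high cells ordered by the score, for the score genes, 4 genes higher in members and 4 lower ones. Cxcl1 is at 57.1 to 94.0 CPM up to bin 8 and at 235 in the highest, and Clec12a and F13a1 decline to 29.8 and 14.9.

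The genes of several macrophage functions were then counted against the 4.24% of tested genes that were higher and the 4.6% that were lower, beside a median log2 value of 0.01 over all genes tested. Genes that degrade and remodel matrix leaned upward. Of 22 tested, 10 were higher and 2 lower, with a median of 0.33. The collagenase Mmp13 was at 296 to 497 CPM in members and 105 to 200 in C1q-high other cells (1.37 ± 0.10), the elastase Mmp12 was higher by 1.10 ± 0.15, and Plaur, the urokinase receptor, by 1.44 ± 0.12. Lgals3, a galectin, was at 1618 to 1855 CPM against 965 to 1211 (0.80 ± 0.05). Fibronectin (Fn1) was lower (-1.05 ± 0.23).

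Of 31 lysosomal genes tested, 15 were higher and 1 lower, with a median of 0.20. The increases were small, as for the membrane protein Cd63 (0.80 ± 0.04) and the proteases Lgmn (0.33 ± 0.04), Ctsz (0.42 ± 0.04) and Ctsb (0.27 ± 0.04). Ctsd, an aspartic protease, was at 154 to 248 CPM in members and 268 to 363 in the others (-0.66 ± 0.08). Among 6 osteoclast genes tested, Ocstamp (0.87 ± 0.14) and Tnfrsf11a, the receptor RANK (0.72 ± 0.20), were higher, and none was lower. Of 14 tetraspanins, Cd63, Cd81 (0.62 ± 0.04) and Tspan13 (1.02 ± 0.07) were higher. Without the mouse block only 3 lysosomal genes remained called as higher.

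The 7 of 10 MHC class II genes that were higher included Cd74, the invariant chain, at 58530 to 64827 CPM in members and 49423 to 54346 in C1q-high other cells (0.30 ± 0.02), and H2-Ab1 (0.23 ± 0.03). None was lower and the median was 0.21, but no MHC class II gene was called without the mouse block. Of 16 tested genes of mature mucosal macrophages 7 were higher and 2 lower (median 0.33). The nuclease Dnase1l3 was at 282 to 392 CPM against 110 to 166 (1.38 ± 0.07), and the integrin Itgax was higher by 0.88 ± 0.09. Of 16 macrophage identity genes 5 were higher, among them Cd81 and Cd68, and 4 lower, Maf (-0.92 ± 0.11), Mrc1 (-0.42 ± 0.08), Cx3cr1 and Itgam. Over 15 other settings these counts ran from 1 to 5 higher and from 1 to 4 lower.

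Monocyte genes were lower or not called. Of 15 tested, 10 were lower and none higher, with a median of -0.85. The chemokine receptor Ccr2, which brings monocytes into tissue, was at 113 to 181 CPM in members and 348 to 423 in C1q-high other cells (-1.40 ± 0.09), and Plac8 was lower by 0.88 ± 0.08 log2 units. Ly6c2, the gate's Ly6C gene, was at 18.3 to 61.4 CPM against 35.8 to 89.6 and was also lower (-0.61 ± 0.15). Genes of perivascular and muscularis macrophages were lower in 6 of 13 tests and higher in none (median -0.29), among them Clec10a (-1.25 ± 0.18), whereas the platelet factor Pf4 had a value of 0.02 ± 0.05.

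Of 18 chemokines tested, 5 were higher and 9 lower (median -0.40). The higher ones included the neutrophil attractants Cxcl1 (the listed marker), Cxcl2 and Cxcl3. Cxcl2 was at 1577, 1443, 1603 and 2427 CPM in members of DEP 11, DEP 13, PBS 2 and PBS 3 and at 757 to 942 in C1q-high other cells (1.03 ± 0.07). Cxcl3 was higher by 1.09 ± 0.16, Cxcl16 by 0.42 ± 0.05 and Cxcl14 by 1.35 ± 0.26. Ccl2, which attracts monocytes, was at 38.1 to 151 CPM against 209 to 401 (-1.62 ± 0.12), and Ccl9 (-0.86 ± 0.07), Ccl6 (-0.60 ± 0.06) and Ccl8 (-0.77 ± 0.07) were lower. Cxcl9, an interferon-induced chemokine, was lower too (-1.29), while Cxcl10 and Ccl3 had values of 0.23 and -0.18 and did not pass the test.

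In the remaining lists fewer genes were called. Of 20 inflammatory cytokine and NF-kB feedback genes Il1b was called as higher (0.28 ± 0.07), in 3 of 4 mice and with overlap, and Clec4e as lower (-1.38 ± 0.23). Over 15 other settings 0 to 3 genes of this list were higher. Of 17 lipid-associated macrophage genes Apoe (0.58 ± 0.03) and Lgals3 were higher and Spp1 (-1.76 ± 0.25) and Fabp5 lower, while Trem2, a lipid-sensing receptor, had a value of 0.14 ± 0.08. Of 12 scavenger and uptake receptors 3 were higher, among them Clec4n (0.87 ± 0.05), and 3 lower. Of 7 complement genes Itgax was higher and 4 lower, C3 by -1.41 ± 0.26. Of 7 growth factors Tgfb1 was higher (0.33 ± 0.08) and Igf1, Gdf15 and Osm lower. Of 13 antioxidant and aryl hydrocarbon response genes 5 were higher, including Ahrr, the repressor of the aryl hydrocarbon receptor, at 8.77 to 15.4 CPM against 3.55 to 7.08 (1.24 ± 0.32), and Slc7a11 (0.84 ± 0.18), and the heme oxygenase Hmox1 was lower (-0.62 ± 0.11). Of 12 cell cycle genes none was called.

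Stress genes moved in these cells too. Of 18 immediate early and heat shock genes that tissue dissociation is known to induce, 2 were higher, Dusp1 and Fosb, and 9 lower (median -0.22), of which 1 remained without the mouse block. Their sum was 126, 105, 151 and 167 per 10000 in members of DEP 11, DEP 13, PBS 2 and PBS 3 and 150, 127, 173 and 152 in C1q-high other cells. Of 19 type I interferon genes 5 were lower and none higher (median -0.40), and again 1 remained without the block. Of the T cell markers Cd4 (0.73 ± 0.14) and Il7r were higher in members, and of the endothelial markers Pecam1. The part of dissociation in the other differences was not tested.

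Compared with Vcam1 Cd72 Lilra5 cells, members differed in fewer genes than against C1q-high other cells, in a test that also held fewer cells. The part of cell number in this was not tested. After 40 cells in both sets were left out, 278 members and 278 other cells differed in 247 of 7870 genes (3.14%), 132 higher (1.68%) and 115 lower (1.46%). Emp1 was at 101 to 184 CPM in members and 9.36 to 31.7 in the other set (3.24 ± 0.23). Apol7c (1.95 ± 0.14), Plaur (1.86 ± 0.19), Il1r2 (1.87 ± 0.18), Pgf (2.33 ± 0.40), the solute carriers Slco3a1 (1.90 ± 0.37) and Slc7a11 (1.80 ± 0.32) and the cyclooxygenase Ptgs2 (1.75 ± 0.39, and 1.12 without PBS 3, which did not pass the test) were higher as well. The lower genes included the chemokines Ccl8, at 215 to 575 CPM against 673 to 1778 (-1.96 ± 0.10), and Ccl7 (-2.37 ± 0.19), the sterol enzyme Ch25h (-2.14 ± 0.43) and the stress cytokine Gdf15 (-1.70 ± 0.25). Only 1 of 31 lysosomal genes was higher and 3 lower, and 1 of 10 MHC class II genes was called in each direction. Of 15 monocyte genes 3 were higher, S100a6, Thbs1 and Ccr2, and none lower. Of 18 tissue dissociation genes 7 were lower, among them Hspb1 and Jun, and none higher (median -0.43). The epithelial marker Car1 was lower too (-3.1 to -2.1 with 1 mouse left out). The part of dissociation or of other cell types in this comparison was not tested.

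Compared with Folr2 Cbr2 cells, members differed in 649 of 7814 genes (8.31%), 376 higher (4.81%) and 273 lower (3.49%), with 292 cells in each set after 26 shared cells were left out. H2-M2, a nonclassical MHC class I gene, was at 341 to 919 CPM in members and 35.8 to 138 in Folr2 Cbr2 cells (3.17 ± 0.14). Mmp12 (2.6 ± 0.20), Mmp13 (2.54 ± 0.15), Ocstamp (2.54 ± 0.27), Il7r (3.53 ± 0.46, and 5.34 without DEP 11) and Il1r2 (2.78 ± 0.22) were higher, as were 9 of 10 MHC class II genes (median 0.72). Of 13 perivascular and muscularis genes 12 were lower and none higher (median -2.02), which is in part the choice of the other set by Folr2 and Cbr2. F13a1 was at 10.8 to 19.0 CPM against 201 to 255 (-3.81 ± 0.19) and Igf1 was lower by 3.49 ± 0.29 log2 units. Lyve1, a hyaluronan receptor, had no UMI among 2803117 in members and 60 UMIs (33.7 CPM) in Folr2 Cbr2 cells, so that it was at least 31.5-fold lower, taking 3 counts over the group of members as the floor. Of 16 monocyte genes 14 were lower.

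The members were themselves divided by Cxcl1. A Cxcl1 UMI was found in 111 of 318 members (34.9%), that is in 42.0%, 26.2%, 34.9% and 26.8% of the members of DEP 11, DEP 13, PBS 2 and PBS 3. The groups overlapped. The shares in C1q-high other cells of the same mice were 18.3%, 13.7%, 20.7% and 17.1%. Plasma cells had one in 27.5% of barcodes at a median of 20942 UMIs, and after thinning the shares were 11.3% of members, 5.23% of C1q-high other cells and 0% of plasma cells. Members with a Cxcl1 UMI were deeper (median 10798 UMIs) than those without one (8353 UMIs). This division was chosen after earlier results were seen.

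Members with a Cxcl1 UMI differed from the other members in 34 of 8151 genes (0.417%), 25 higher and 9 lower. Cxcl2 was at 2419, 2982, 2242 and 4946 CPM in those with a Cxcl1 UMI in DEP 11, DEP 13, PBS 2 and PBS 3 and at 775, 808, 1070 and 1176 in those without (1.65 ± 0.09). Nfkbia, an inhibitor of NF-kB, was at 649 to 1076 CPM against 252 to 535 (1.14 ± 0.12), and Il1b, the cytokine interleukin 1 beta, at 3916 to 5712 against 1828 to 3221 (0.82 ± 0.09). No mouse overlapped in these genes. Cxcl3 (1.64 ± 0.23), the NF-kB inhibitor Tnfaip3 (1.08 ± 0.21), the kinase Sgk1 (1.24 ± 0.15) and Il1r2 (0.86 ± 0.16) were also higher in all 4 mice. Of 19 inflammatory cytokine and NF-kB feedback genes 5 were higher and 0 lower. Of 18 tissue dissociation genes 4 were higher, the immediate early genes Junb (0.62 ± 0.09), Fosb (0.67 ± 0.13), Dusp1 (0.46 ± 0.10) and Zfp36 (0.47 ± 0.11), in all 4 mice but with overlap between the sets, and Hspa1a was lower. The part of dissociation in this comparison was not tested. The genes called as lower included Ccl8 (-1.01 ± 0.14), Hmox1 (-0.84 ± 0.18) and Hspa1a (-0.53 ± 0.10), all with overlap between the sets. Ccl8 was lower in 3 of 4 mice, with 225 CPM against 215 in PBS 3, and Hspa1a had a value of -0.35 without PBS 3, which did not pass the test. Retnla was called as higher (2.6 ± 0.41), with 94 of the 100 UMIs in members of DEP 11 in a single cell that was marked as a doublet, and its value was 0.42 without DEP 11, which did not pass the test. DESeq2 called 6 genes and a fit without the mouse block 6.

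The promoters of the 3 chemokines Cxcl1, Cxcl2 and Cxcl3 are shown because their transcripts were high in the same members. Each of these neighbouring genes on chromosome 5 carries the NF-kB type motif GGAANTTCC, which reads the same on both strands. The motif was searched after the genes were known. It was present in 305 of 32851 RefSeq promoters (0.928%), and in 100 of 6443 tested genes with a promoter in this comparison (1.55%). Of the 21 higher genes with a promoter 5 had it, namely Cxcl2, Cxcl3, Il1r2, Nfkbia and Tnfaip3, and of 4 lower genes AW112010 had it. A match is a run of letters and not a measured binding site. The 120 bases before each start, 5′ to 3′ on the plus strand of GRCm38.p6 with the motif in capitals, are those of chr5:90891125-90891244 for Cxcl1, chr5:90903779-90903898 for Cxcl2 and chr5:90785981-90786100 for Cxcl3, and the motif begins 70, 96 and 72 bases before the start:
Cxcl1: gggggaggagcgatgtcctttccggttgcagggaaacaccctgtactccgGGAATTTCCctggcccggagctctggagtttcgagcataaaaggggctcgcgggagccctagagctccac
Cxcl2: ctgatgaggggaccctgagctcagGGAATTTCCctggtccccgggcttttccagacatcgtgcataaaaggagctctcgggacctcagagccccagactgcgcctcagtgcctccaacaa
Cxcl3: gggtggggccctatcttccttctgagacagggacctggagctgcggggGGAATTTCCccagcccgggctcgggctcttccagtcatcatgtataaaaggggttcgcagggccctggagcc

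Whether diesel exhaust particles changed the transcripts within members was tested between the 2 DEP and 2 PBS mice. Of 7642 genes, 20 (0.262%) were called by edgeR's quasi-likelihood test at an adjusted p under 5%, 3 (0.0393%) higher and 17 (0.222%) lower in DEP mice. The 2 groups did not overlap in any of the 20, and they did not overlap in 32.6% of all genes tested. The calls rest on few mice. Without DEP 11, a fit that leaves only DEP 13 in its group, all 20 kept their direction. With a mouse left out, Hspa1a ran from -1.56 to -1.35 and Dnajb1 from -2.76 to -1.29. DESeq2 called 2 of the 20. With all mice 398 of the 7642 genes had an unadjusted p under 0.05, close to the share that this threshold gives by chance.

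Several of the 17 lower genes, grouped here after their values were seen, encode heat shock proteins. Hspa1a was at 767 and 636 CPM in members of DEP 11 and DEP 13 and at 1959 and 1866 in PBS 2 and PBS 3 (log2 fold change -1.45 ± 0.19, adjusted p = 4.15e-06). The co-chaperone gene Dnajb1 was at 121 and 196 CPM against 393 and 1017 (-2.19 ± 0.28), with PBS 3 well above PBS 2. Hspb1 was at 3.97 and 1.63 CPM against 18.6 and 85.3 (-3.85 ± 0.61). Hsp90aa1 (-1.38 ± 0.23), Hsph1 (-2.05 ± 0.35), Bag3 (-1.88 ± 0.36), Hspa1b (-1.14 ± 0.25), Ier2 (-1.03 ± 0.22), Jun (-0.86 ± 0.21), Gadd45g (-1.12 ± 0.26) and Phlda1 (-2.07 ± 0.29) were lower too. Without PBS 3 the values of Dnajb1, Hspb1 and Phlda1 were -1.29, -2.45 and -1.35, and Hspb1 no longer passed the test. Hspa1a and Hspa1b are near-identical copies, so that their separate values are uncertain.

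Of the 18 dissociation genes tested 7 were lower in members of DEP mice and none higher (median -0.56), and their summed level was given above. In C1q-high other cells the sum was 150, 127, 173 and 152 per 10000 in DEP 11, DEP 13, PBS 2 and PBS 3, also without overlap. Within all C1q-high cells Hspa1a had a value of -0.79 ± 0.16 and Hspb1 of -2.12 ± 0.40, which did not pass the test (adjusted p = 0.276 and 0.274, edgeR). The part of dissociation in these differences was not tested.

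Among the other lower genes Hmox1, which breaks down heme, was at 65.1 and 99.7 CPM against 171 and 335 (-1.64 ± 0.27, and -1.04 without PBS 3). The interferon-induced genes Cxcl10 (-1.33 ± 0.26), Isg15 (-1.56 ± 0.32) and Ifit3 (-3.52 ± 0.65) were lower, as 3 of 17 tested type I interferon genes (median -0.85). In PBS 2 a single member held 27 of the 33 Ifit3 UMIs and 62 of the 103 Isg15 UMIs. Cd69, an activation marker, was lower by 1.65 ± 0.33 log2 units. The immunoglobulin light chain Iglc2 was at 389 CPM in PBS 3 and 29.4 to 37.3 in the other mice, and PBS 3 was also the mouse with the highest summed plasma cell markers in members, 13.2 per 10000 against 4.90 to 9.22.

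The 3 higher genes included 2 of those that were higher in members to begin with. Adamdec1 was at 101 and 108 CPM in the members of DEP 11 and DEP 13 and at 44.4 and 31.4 in PBS 2 and PBS 3 (1.42 ± 0.29, adjusted p = 0.00481, edgeR). Apol7a was at 91.3 and 168 CPM against 67.3 and 29.2 (1.32 ± 0.30), a gap between groups that is smaller than the spread within each. Stmn1, a microtubule protein of dividing cells, was at 82.6 and 32.7 against 10.0 and 27.0 (1.86 ± 0.41), with 39 of the 104 UMIs of DEP 11 in 1 cell. Stmn1 had a value of 0.96 without DEP 11 and 1.15 without PBS 2, and Apol7a of 0.83 without DEP 13 and 2.04 without PBS 2, and none of these passed the test.

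**Figure D5:**
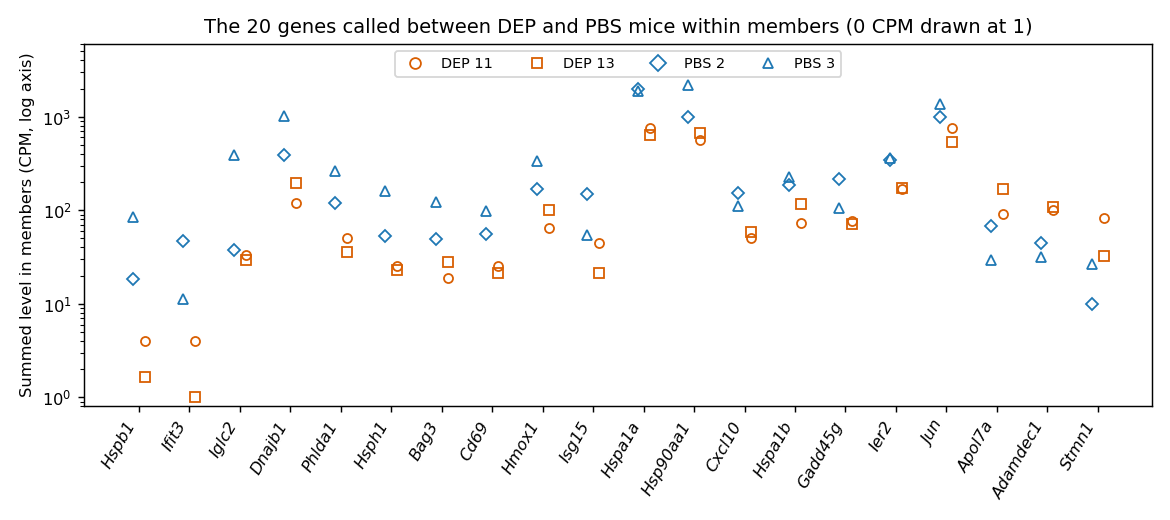
Summed level in members (CPM of the genes in the fit, log axis, 0 drawn at 1) of the 20 genes called between DEP and PBS mice; each symbol is 1 mouse. The DEP symbols lie below the PBS symbols for 17 genes and above them for Apol7a, Adamdec1 and Stmn1, and PBS 3 exceeds PBS 2 widely for Dnajb1, Hspb1 and Iglc2.

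None of the lists of macrophage identity, monocyte, lysosome, tetraspanin, osteoclast, lipid-associated, MHC class II, scavenger, complement, perivascular, growth factor or inflammatory cytokine genes had a member called between DEP and PBS mice within these cells. One gene each was called in the matrix and mucosal lists (Adamdec1), the chemokine list (Cxcl10), the antioxidant list (Hmox1) and the cell cycle list (Stmn1). Only 0.262% of all genes tested were called, and the lists without a call held 6 to 31 tested genes. Lists of that size would rarely hold a call, so no absence of change can be read from them. Cxcl1 in members was at 276 and 173 CPM in DEP mice and 229 and 265 in PBS mice (-0.12 ± 0.22), and the groups overlapped.

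The genes of the score were also described in each mouse over all C1q-high cells, without a test, since they chose the members and the C1q level was set with the members in view. Ecm1 was at 478 and 553 CPM in DEP 11 and DEP 13 and at 390 and 323 in PBS 2 and PBS 3 (0.54 ± 0.17). Acp5 was at 643 and 428 CPM against 419 and 399 (0.39 ± 0.19). Pxdc1 was at 149 and 134 CPM against 125 and 66.0 (0.59 ± 0.23), and Cd9 at 388 and 377 against 219 and 322 (0.50 ± 0.20). With 1 mouse left out the values ran from 0.4 to 0.67 for Ecm1 and from 0.1 to 0.63 for Acp5. They ran from 0.23 to 1.07 for Pxdc1 and from 0.22 to 0.85 for Cd9. The groups did not overlap in any of the 4, and they did not overlap in 29.1% of all genes tested in these cells. Across the 7036 genes of this comparison edgeR called 0 (0.0%) and DESeq2 called 7. An unadjusted p under 0.05 in edgeR was found for 245, fewer than this threshold gives by chance. Over all C1q-positive cells edgeR also called 0 of 6643 genes (0.0%) and DESeq2 called 5. There 196 genes had an unadjusted p under 0.05 in edgeR, again fewer than this threshold gives by chance. With the members removed the values were 0.05 to 0.10 and the groups overlapped in all 4, a removal that takes out the cells chosen for these genes.

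In C1q-high cells without members 4 of 6938 genes (0.0577%) were called, Retnla (-1.96 ± 0.22), Apol7a (1.45 ± 0.25), Ccl8 (0.96 ± 0.17) and Cxcl9 (1.77 ± 0.31). Cxcl9 was at 121, 41.3, 22.5 and 25.5 CPM in these cells of DEP 11, DEP 13, PBS 2 and PBS 3, and its value was 0.82 without DEP 11, which did not pass the test. Apol7a was thus higher in DEP mice both within members and outside them.

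Whether the DEP effect differed between members and other C1q-positive cells was tested by an interaction term, which called 16 of 7726 genes (0.207%). DESeq2 called 0. In edgeR 426 genes had an unadjusted p under 0.05, not far above the share that this threshold gives by chance. The matrix enzyme Mmp12 was at 149 and 226 CPM in members of DEP mice and 114 and 116 in PBS mice, and at 37.5 and 54.5 against 62.3 and 80.2 in other cells (interaction 1.30 ± 0.20). Mmp12 had the opposite order in members and in other cells, with no overlap in either. Ifitm3, an interferon-induced membrane protein, was at 343 and 334 CPM against 595 and 580 in members and overlapped between groups in other cells (-0.79 ± 0.11).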

How the data were processed

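The authors sequenced 10x 3′ v2 libraries, 1 per mouse, and processed them with Cell Ranger (STAR 2.6.1a, mm10, R 3.5.1 among the tools in the submitters' processing notes). The deposited matrix holds UMI counts per gene and barcode, not normalised, and the mouse was read from the barcode suffix. The filter used here leaves several times more cells than the study states, and the study names another data record and another version of R than the submitters' notes, so the deposited matrix may not be the one the study analysed. Gene names came from GENCODE (28339 of 28692 matched).

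Counts were summed per mouse and cell set and tested with edgeR 4.0.16 (quasi-likelihood, TMM, Benjamini-Hochberg 5%, R 4.3.3), on genes above 1 CPM in 2 or more sums and with a UMI in 5% of cells of either side. DESeq2 1.42.0 was an alternative. Comparisons between cell sets had the mouse as a block. SE is the log2 fold change divided by the square root of F. The fitting code was tested on simulated data. Shares were compared by an exact permutation test over mice, with exact binomial intervals. Scrublet marked doublets, and cells were thinned to 1000 UMIs where stated. Total UMIs per mouse were 7585591 (DEP 11), 4489342 (DEP 13), 10293703 (PBS 2) and 9893180 (PBS 3). Intervals cover counting error only.

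The members and gene lists were chosen with earlier results of these data known. The C1q-high set, the Cxcl1 division, scores with 1 gene left out, the top 7% of each mouse and the GGAANTTCC motif were added after seeing the data. Named genes were the 5 listed markers, up to 10 per direction with the largest change among genes called, of one direction in all 4 mice and at 20 CPM or more on the higher side, for DEP up to 5 per direction with the smallest p or 3 where none passed, and up to 4 per list. Other list, chemokine and Cxcl1 genes, and the rest of the 20 DEP calls, were chosen after their values were seen.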

Additional observations from a re-analysis of the deposited data

Results flagged for a closer look

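The effect of DEP differed between members and other C1q-positive cells in 16 genes by edgeR's interaction test, and in 0 by DESeq2. For Retnla the interaction was 3.35 on the log2 scale, 94 of the 100 UMIs in members of DEP 11 were in 1 cell called a doublet, and the value was 0.14 without called doublets and 0.16 without DEP 11. For Mmp12 it was 1.30, with log2 ratios of the group means of 0.70 in members and -0.63 in other cells. For Adamdec1 it was 1.43, with 1.46 in members and -0.02 in other cells, and 1 cell held 19 of the 66 UMIs in DEP 13. For Gpnmb it was 3.48, with 3.21 in members and -0.82 in other cells. Its level in members was 4.05, 49.9, 5.85 and 0 CPM in DEP 11, DEP 13, PBS 2 and PBS 3, so DEP 13 alone stood apart, and 12 of its 30 UMIs were in 1 cell. Leaving out 1 mouse gave 2.95 (without PBS 3, not past the test) to 9.64 (without PBS 2, a fitted value that depends on the prior count because the remaining PBS mouse had no UMI in members). For Mmp13 it was 0.70, with 0.43 in members and -0.18 in other cells, and 0.34 without DEP 11, which did not pass the test. For Ifitm3 it was -0.79, with -0.80 in members and -0.01 in other cells. The stress genes Hspa1a and Dnajb1 had interactions of -0.69 and -0.75, and both were lower in DEP mice in members (-1.45 and -2.15) and in other cells (-0.75 and -1.37). For Ifit3 the value was -3.34, with 27 of the 33 UMIs in PBS 2 in 1 cell. It ran from -8.43 to -2.37 with 1 mouse left out, the latter without PBS 2. For Cxcl9 the value was -2.14, with 16 of the 22 UMIs in PBS 3 in 1 cell. The part of single cells in these values was not tested beyond the settings named.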

How the results depend on the processing

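The higher share of members in DEP mice kept its direction under every setting tried, and leaving out 1 mouse gave differences of 5.20 to 7.42 points. With DESeq2's Wald test the number of called genes was 794 for members against all other cells, 758 against other C1q-positive cells, 319 against C1q-high other cells, 63 against Vcam1 Cd72 Lilra5 cells, 280 against Folr2 Cbr2 cells, 6 for members with a Cxcl1 UMI, 2 for DEP within members, 5 for DEP within C1q-positive cells (0 in edgeR), 7 within C1q-high cells and 0 for the interaction. Without the mouse as a block the calls of members against all other, other C1q-positive, C1q-high other and Vcam1 Cd72 Lilra5 cells were 676, 637, 217 and 106, and 6 for members with a Cxcl1 UMI. No paired analysis was possible because the DEP and PBS mice share no replicate numbers.

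With the score on thinned counts there were 413 calls against C1q-high other cells, 96 against Vcam1 Cd72 Lilra5 cells, 3 for DEP within members, 0 for DEP in C1q-high cells without members and 7 for the interaction. Mt2 then turned to 0.41 against C1q-high other cells and 0.72 against Vcam1 Cd72 Lilra5 cells, and the interactions of Retnla and Mmp13 to -0.31 and -0.16. With the top 5% as members DEP gave 0 calls within members and 5 for the interaction, and with the top 10% 10, 2 in C1q-high cells without members and 10 for the interaction. With the top 7% of each mouse there were 2 in C1q-high cells without members and 10 for the interaction. Without the gene filter DEP gave 33 calls within members, 88 in C1q-positive, 76 in C1q-high cells and 38 in those without members. Without called doublets it gave 1 in C1q-positive and 5 in C1q-high cells, and with mitochondrial shares up to 5% 1 in C1q-high cells. With C1q-high taken from 100 per 10000 there was 1 in C1q-high cells and 1 in those without members, from 40 per 10000 1 in those without members, and with C1q-positive from 20 per 10000 8 for the interaction. The cause of these changes was not tested.

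Leaving out 1 mouse at a time gave 125 to 213 calls against Vcam1 Cd72 Lilra5 cells, 0 (without DEP 11) to 29 for DEP within members, 5 to 90 in C1q-positive cells, 1 to 25 in C1q-high cells, 1 to 16 in C1q-high cells without members and 8 to 35 for the interaction. DEP within members gave 11 calls without PBS 2. An arm left with 1 mouse was assumed to vary like the other. Of the values of named genes under the alternatives, 1957 kept their direction and side of the threshold, 195 lost the call, 59 gained one and 4 reversed. With 2 mice per group no comparison of shares can pass an exact test, and 56 to 138 members per mouse set the precision of low genes.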
